A study of Mus musculus with 407 samples.

Results

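The mouse mitochondrial genome encodes a small set of proteins, all of them subunits of the respiratory chain or of ATP synthase, and 10 of its mRNA genes are described here in skeletal muscle: ND1, ND2, ND4, ND5, CYTB, COX1, COX2, COX3, ATP6 and ATP8. They were found by gene symbol, and all 10 were present in every count table among 24458 gene symbols. The mice were C57BL/6J of both sexes, aged 6, 12, 18 or 21 months, or, in the oldest groups, 24 or 27 months, and the muscles were the soleus, the gastrocnemius, the tibialis anterior and the diaphragm, with 6 to 10 libraries per combination of muscle, sex and age. The animals were bought at different ages from a commercial breeder, were housed at the study site for about 12 weeks, and carried no transgene or treatment. Muscles were kept in RNA preservative, and strand-specific total RNA libraries were made after ribosomal RNA removal. Tissues of an age group were collected on 1 day, so age and collection day cannot be told apart. Whole muscle was sequenced, and fewer fibres and less RNA per fibre cannot be told apart in such material.

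Mitochondrial DNA is a small circle that each muscle fibre holds in many copies. It is transcribed from both strands into long RNAs, which are cut, mostly at the tRNA genes that punctuate them, into mRNAs, tRNAs and rRNAs, and the mRNAs are translated inside the organelle. ND1, ND2, ND4 and ND5 are membrane subunits of complex I, which takes electrons from NADH and pumps protons. CYTB is the cytochrome b of complex III, COX1, COX2 and COX3 form the catalytic core of complex IV, which reduces oxygen, and ATP6 and ATP8 belong to the membrane part of ATP synthase. Each of these complexes also needs subunits from nuclear genes, and muscles rich in oxidative fibres are known for a high content of mitochondria.

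All 10 genes lie on the same strand of the mitochondrial chromosome (GRCm38, chromosome MT), which has no introns. In the annotation ND1 spans positions 2751 to 3707, ND2 3914 to 4951, COX1 5328 to 6872, COX2 7013 to 7696, ATP8 7766 to 7969, ATP6 7927 to 8607, COX3 8607 to 9390, ND4 10167 to 11544, ND5 11742 to 13565 and CYTB 14145 to 15288. The genes are packed so tightly that ATP8 and ATP6 share 43 bases in different reading frames, and ATP6 and COX3 share 1 base. ATP8 is 204 bases long, and a pair of reads of 76 bases each that starts in it can reach into ATP6. The whole of ATP8 and the start of ATP6 are shown with the 43 shared bases in capitals, because the ATP8 values below behaved unlike those of the other members.
ATP8: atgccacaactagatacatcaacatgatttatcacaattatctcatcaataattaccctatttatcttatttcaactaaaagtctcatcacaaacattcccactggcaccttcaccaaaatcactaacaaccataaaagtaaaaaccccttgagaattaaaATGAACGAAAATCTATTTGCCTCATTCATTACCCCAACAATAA
ATP6, first 60 bases: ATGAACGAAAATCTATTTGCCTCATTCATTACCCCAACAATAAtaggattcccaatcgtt
COX3, ND4 and CYTB end on a lone T, in capitals below, which becomes a stop codon only when the poly(A) tail is added, whereas COX1 carries its whole stop codon, also in capitals. The last bases are shown to mark where the annotation ends these genes.
COX3, positions 9360 to 9390: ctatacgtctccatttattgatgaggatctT
ND4, positions 11514 to 11544: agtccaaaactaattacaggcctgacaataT
CYTB, positions 15258 to 15288: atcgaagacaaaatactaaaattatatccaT
COX1, positions 6843 to 6872: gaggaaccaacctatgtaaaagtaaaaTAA

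The libraries held between 38583802 and 300089909 counts on genes, so that the counting error of the members was negligible beside the spread between libraries. Some libraries stood apart. In 7 diaphragm libraries the replication-dependent histone genes, whose mRNAs have no poly(A) tail, summed to 32.7 to 54.9 CPM (counts per 1e+06 counts on genes) against 183 to 957 in the other 91. In these 7 the members took 30.1 to 44.7% of all counts, against 16.7 to 33.95% in the others, and the RNase P RNA gene Rpph1, also without a tail, had 1.43 to 68.5 CPM against 338 to 1334. They were the libraries of females at 6 months replicate 2, 21 months replicate 0, 24 months replicate 3 and 27 months replicate 0 and of males at 6 months replicate 2, 24 months replicate 6 and 27 months replicate 6, and diaphragm results are given with and without them where that changed a call. Liver markers were high in male diaphragm at 21 months replicate 3 (26453 CPM), male diaphragm at 27 months replicate 6 (10430 CPM) and female soleus at 18 months replicate 6 (1933 CPM). In gastrocnemius and in tibialis anterior the libraries numbered replicate 0 were the lowest or second lowest of their group in the members' share of counts in 12 of 12 groups each, at 0.88 and 0.86 times the median of the other libraries (median over groups). Every group had at most 1 such library.

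The 10 members together took 26.3% of all counts on genes in the median library, from 14.8 to 44.7%. The share was lowest in gastrocnemius, at 14.8, 19.7 and 24.4% (lowest, median and highest of 104 libraries), followed by soleus at 20.0, 24.5 and 29.3% (103 libraries). Diaphragm (16.7, 29.9 and 44.7%, 98 libraries) and tibialis anterior (23.3, 29.9 and 37.1%, 102 libraries) were highest. The range of diaphragm held that of tibialis anterior only through the 7 libraries low in histone RNA, since the other 91 had 16.7 to 33.95%. The gastrocnemius and tibialis anterior libraries of females did not overlap (15.3 to 22.6% and 23.3 to 33.3%), and neither did those of males (14.8 to 24.4% and 25.0 to 37.1%). COX1 was the gene with the most counts in the diaphragm and the second in the other 3 muscles, by its median. Within single muscle, sex and age groups the medians of the share moved over a few percentage points, from 25.8 to 32.0% in female diaphragm, 18.1 to 21.0% in female gastrocnemius, 21.2 to 23.8% in female soleus and 27.3 to 30.1% in female tibialis anterior. In males the group medians were 29.0 to 31.3%, 19.7 to 21.8%, 26.2 to 27.7% and 28.5 to 33.5% in the same order of muscles.

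**Figure D1:**
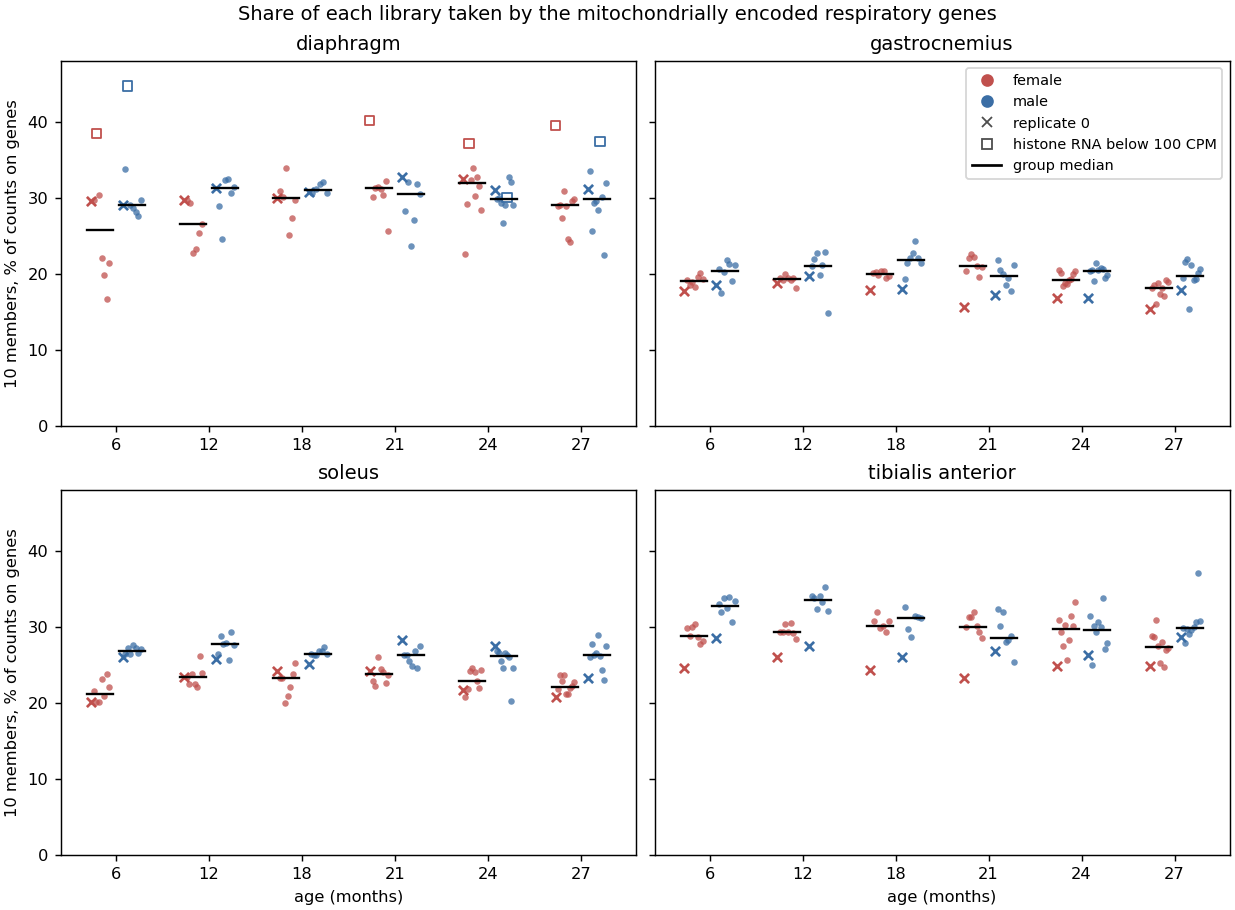
Share of all counts on genes taken by the 10 mitochondrially encoded members (y axis, percent) in each library against age in months (x axis), with 1 panel per muscle, females in red and males in blue. Black lines are group medians, crosses are libraries numbered replicate 0 and open squares are the 7 diaphragm libraries with histone RNA below 100 CPM; male soleus lies above female soleus, and most crosses lie low in gastrocnemius and tibialis anterior.

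Per kilobase of gene, COX1 was the highest member in every muscle, with medians of 63380 CPM per kilobase in diaphragm, 52554 in soleus, 50396 in tibialis anterior and 35959 in gastrocnemius (counts scaled to the library total). COX2 was second in each, with 25969 to 38577, and ND1 came next, with 22551 to 35083. ND4, COX3, ATP6, ND2 and CYTB lay between 14611 and 29748 CPM per kilobase in all 4 muscles. ND5, the longest member, was lower at 10279 to 17166, and ATP8 was by far the lowest at 3989, 1552, 2854 and 2514 in the same order of muscles. All 10 are encoded on the same strand. ND6, the only mRNA of the other strand and a further complex I subunit, had medians of 82.5 to 189 CPM per kilobase.

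Apart from ATP8 the members moved together. Over all libraries, the deviations of log2 levels from the group means of the other 9 members correlated with each other at 0.81 to 0.99 (Pearson's r, median 0.93, 36 pairs), a description of libraries that share depth and scaling. ATP8 correlated with the other 9 at 0.23 to 0.50. The spread between libraries within a group, pooled over groups, was a standard deviation (SD) of 0.23 to 0.28 on the log2 scale for the 9 members and 0.59 for ATP8. For the short genes ND4L and ND3, which are not members, it was 0.46 and 0.26. The spread of the members was larger in diaphragm (0.35 to 0.43, and 0.86 for ATP8) than in soleus (0.14 to 0.18, and 0.49 for ATP8). The ratio of ATP8 to ATP6 counts therefore ranged widely, from 26.2 to 152 ATP8 counts per 1000 ATP6 counts in diaphragm (median 51.6), 15.9 to 81.7 in soleus (28.5), 23.5 to 78.3 in tibialis anterior (35.7) and 32.7 to 187 in gastrocnemius (46.3). The sources used here do not give how reads over the shared bases were assigned, and its part in these ratios was not tested.

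The make-up of the members differed between muscles. COX1 took 29.96, 32.6 and 34.5% of the members' counts in diaphragm (lowest, median and highest library), 30.4, 33.0 and 36.8% in soleus, 25.9, 27.9 and 35.6% in gastrocnemius and 24.7, 26.1 and 28.9% in tibialis anterior. No library of diaphragm or soleus had as low a COX1 share as any of tibialis anterior, and in females gastrocnemius and soleus did not overlap either. The median ND2 shares were 7.12% in diaphragm, 7.44% in soleus, 8.05% in gastrocnemius and 8.68% in tibialis anterior. ND5 had median shares of 8.68% in diaphragm, 9.56% in gastrocnemius, 10.1% in soleus, and 10.5%, the highest, in tibialis anterior.

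**Figure D2:**
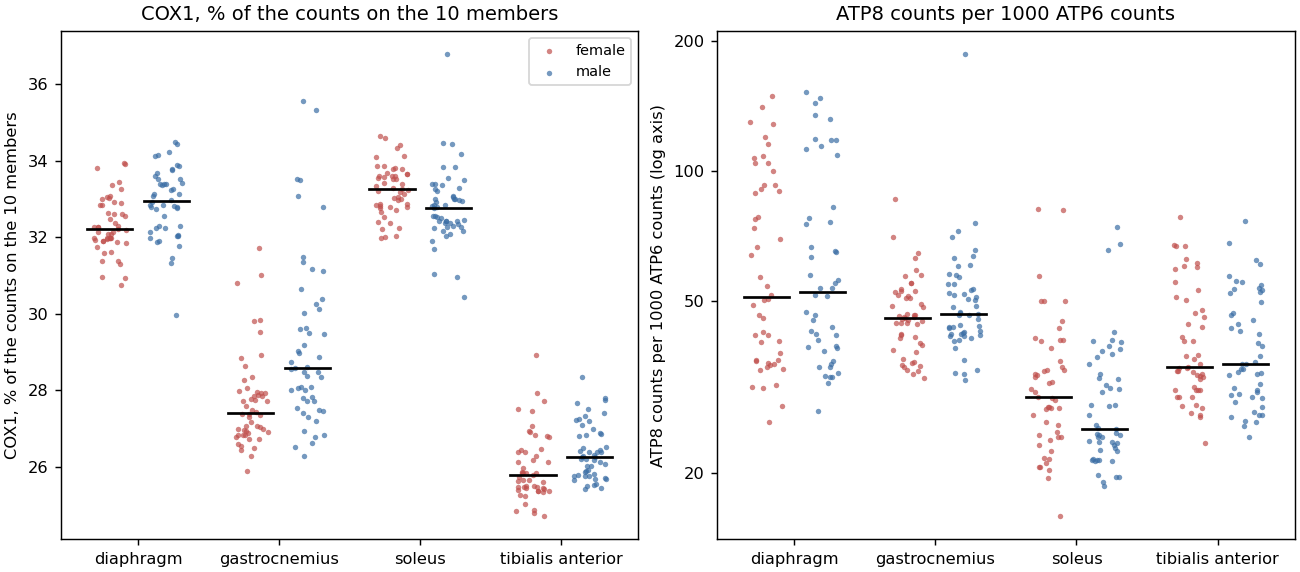
Make-up of the members' counts in each library by muscle and sex: the share of COX1 in the counts of all 10 members (percent) and ATP8 counts per 1000 ATP6 counts (log axis). The COX1 share lies at 29.96% or above in every diaphragm and soleus library and at most 28.9% in every tibialis anterior library, and the ATP8 ratio spreads from 15.9 to 187.

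Muscles were compared within each sex over all 6 ages, after TMM scaling of library sizes (trimmed mean of M values), which assumes that most genes do not differ. Libraries of different muscles can come from the same mouse, and these fits treated them as independent. That assumption is strained here: for diaphragm against tibialis anterior in females, 8467 of 17027 genes tested were called as higher and 6581 as lower. With TMM the members were highest in tibialis anterior, which did not hold for all of them under other scalings, as given below. COX1 had 71723, 97365 and 111628 TMM-scaled CPM in female tibialis anterior (lowest, median and highest of 51 libraries) and 41070, 60034 and 67368 in female gastrocnemius (52 libraries). ATP6 had 16526, 21144 and 24859 in female tibialis anterior, 8229 to 14588 with a median of 12506 in gastrocnemius, and 7472 to 12312 with a median of 10210 in soleus. For both genes, with this scaling, the female tibialis anterior libraries lay above every library of gastrocnemius, and for ATP6 above every library of soleus as well. The share of all genes that separated in this way is not given here. In females 25.3% of all genes tested were called as lower in gastrocnemius than in tibialis anterior, and 34.3% in soleus.

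Against tibialis anterior, all 10 members were lower in gastrocnemius in both sexes (edgeR, adjusted p below the threshold of 0.05). Lower calls made up 25.3% of all genes tested in females and 29.4% in males. The median log2 difference of the members was -0.78 in females and -0.86 in males, from -0.92 ± 0.05 (standard error) for ND5 to -0.59 ± 0.12 for ATP8 in females. In males ND5 differed by -1.05 ± 0.06 and ATP8 by -0.55 ± 0.12. This difference was called for 10 of 10 members in both sexes also when libraries were scaled to their total count or to their nuclear-encoded count alone. The members in soleus were lower than in tibialis anterior too, 10 of 10 in each sex (34.3% of all genes in females and 38.6% in males), with medians of -0.94 and -0.86. COX1 differed least there, by -0.42 ± 0.05 in females and -0.38 ± 0.04 in males, and ATP8 most, by -1.36 ± 0.12 and -1.46 ± 0.13. Scaled to total count the COX1 difference between soleus and tibialis anterior was 0.01 in females and 0.10 in males, the last called as higher in soleus, while the other 9 members stayed lower in soleus.

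For diaphragm, and for gastrocnemius against soleus, the outcome turned on the scaling. With TMM the diaphragm was below tibialis anterior for 9 of 10 members in females (median -0.91, 38.7% of all genes lower) and 10 of 10 in males (median -1.08, 43.6% lower), whereas with scaling to nuclear-encoded counts the medians were -0.07 and -0.11, with 3 members higher and 5 lower in females and 3 higher and 6 lower in males. The whole transcriptome shifted between the scalings, since the median log2 difference of all genes was 1.02 in females and 0.97 in males in this comparison under nuclear-encoded scaling. Relative to that median, the members were lower in diaphragm, by -1.05 and -1.08 in females and by -1.08 under both scalings in males. A change of scaling moves all genes of a comparison nearly alike, so the likeness of these values is no check of the scaling. Against gastrocnemius the diaphragm was lower for 6 members and higher for COX1 (0.20 ± 0.05) and ATP8 (0.41 ± 0.12) in females, with 39.3% of all genes lower and 47.3% higher, and lower for 7 of 10 in males (42.3% lower). With nuclear-encoded scaling 10 of 10 members were higher in diaphragm than in gastrocnemius in both sexes, with medians of 0.70 and 0.75. Relative to the median of all genes the diaphragm members lay lower, by -0.24 and -0.26 in females and by -0.20 and -0.19 in males. These values too are alike under both scalings by construction.

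Against soleus the diaphragm differed from member to member in females, with ATP8 (1.18 ± 0.12), COX2 (0.19 ± 0.06) and ATP6 (0.18 ± 0.05) higher and ND4 (-0.18 ± 0.05) and ND5 (-0.24 ± 0.05) lower. Of all genes 44.8% were higher and 38.7% lower in that comparison. In males ATP8 was higher (1.16 ± 0.13) and 7 members were lower, among 38.7% of all genes higher and 41.8% lower. Gastrocnemius exceeded soleus for 6 members in females, most for ATP8 (0.77 ± 0.12) and ATP6 (0.29 ± 0.05), while COX1 was lower (-0.27 ± 0.05), among 36.7% higher and 37.9% lower of all genes. In males 3 members were higher and 4 lower, among 37.8% and 35.3% of all genes, with COX1 at -0.33 ± 0.04 and ATP8 at 0.91 ± 0.12. Under nuclear-encoded scaling 6 members were lower in gastrocnemius than in soleus in females and 9 in males, with ATP8 the exception that remained higher in both sexes. COX1 thus lay below the soleus level in gastrocnemius, and ATP8 above it, under each of the 3 scalings and in both sexes.

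**Figure D3:**
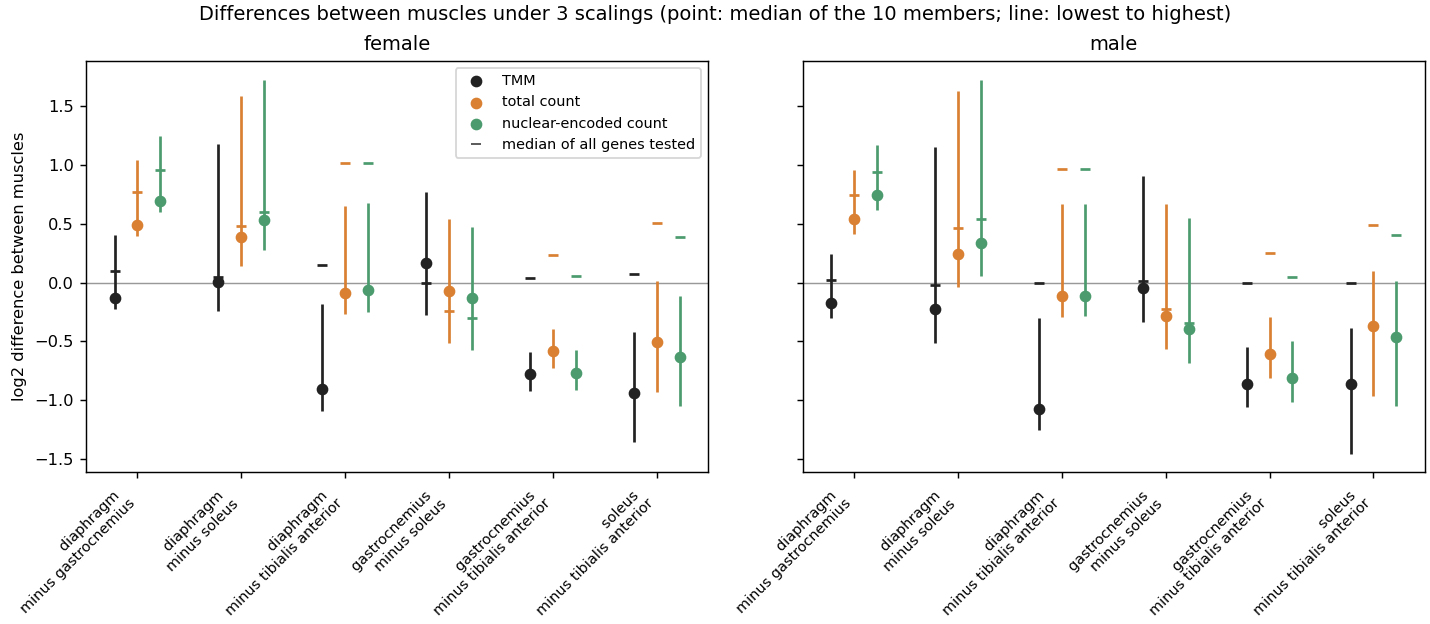
Difference between muscles in log2 level for the 10 members, with females and males in separate panels and the 6 pairs of muscles on 1 axis, under TMM, total count and nuclear-encoded count scaling. Points are medians over members, lines run from the lowest to the highest member and dashes are the median of all genes tested; gastrocnemius lies below tibialis anterior under all 3 scalings, while diaphragm against gastrocnemius moves from -0.13 to 0.70 in females.

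Genes of the nuclear-encoded part of the respiratory chain were lower than in tibialis anterior as well with TMM: of 81 nuclear subunit genes, 72 in diaphragm, 71 in gastrocnemius and 62 in soleus in females, and 71, 71 and 56 in males. Of all genes tested, 38.7, 25.3 and 34.3% were lower in these comparisons in females, and 43.6, 29.4 and 38.6% in males.

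Between the sexes, members were lower in females in soleus, tibialis anterior and gastrocnemius. ND5 had 14886, 21457 and 28686 TMM-scaled CPM in female soleus (51 libraries) and 14107, 26622 and 33333 in male soleus (52 libraries). ND1 had 12954, 19242 and 23886 in females and 13103, 24306 and 28229 in males. The ranges overlapped over all ages, but at 6 months the members' share of counts did not, at 20.1 to 23.7% in females and 26.1 to 27.6% in males (8 libraries each). Over all ages 9 of 10 members were lower in female soleus and none was higher, where 14.6% of all genes tested were lower. The differences ran from -0.32 ± 0.03 for ND1 (adjusted p = 2.1e-14), ND2 (-0.32) and ND5 (-0.32 ± 0.03, adjusted p = 1.2e-14) to -0.24 for CYTB and ATP6. ATP8 was not called, at -0.07 ± 0.10.

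In tibialis anterior 9 members were also lower in females, against 24.2% of all genes, by -0.12 to -0.17, with COX1 at -0.17 ± 0.03 (adjusted p = 8.4e-07), and ATP8 was not called (-0.11 ± 0.10). In gastrocnemius 4 of 10 were lower, against 26.4% of all genes. They were the 3 complex IV subunits, COX1 (-0.18 ± 0.03, adjusted p = 1.7e-09), COX3 (-0.15 ± 0.03) and COX2 (-0.12 ± 0.03), and ND1 (-0.10 ± 0.04), whereas the difference of ATP6 was -0.04 ± 0.04. In diaphragm no member was called, against 8.55% of all genes lower and 10.3% higher, with a median of -0.12, 0 members at an unadjusted p below 0.05 and a lowest adjusted p of 0.16, and 2 members were lower without the 7 libraries low in histone RNA, against 15.1% of all genes in that fit. The counts in all 4 muscles were the same under total count and nuclear-encoded scaling.

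**Figure D4:**
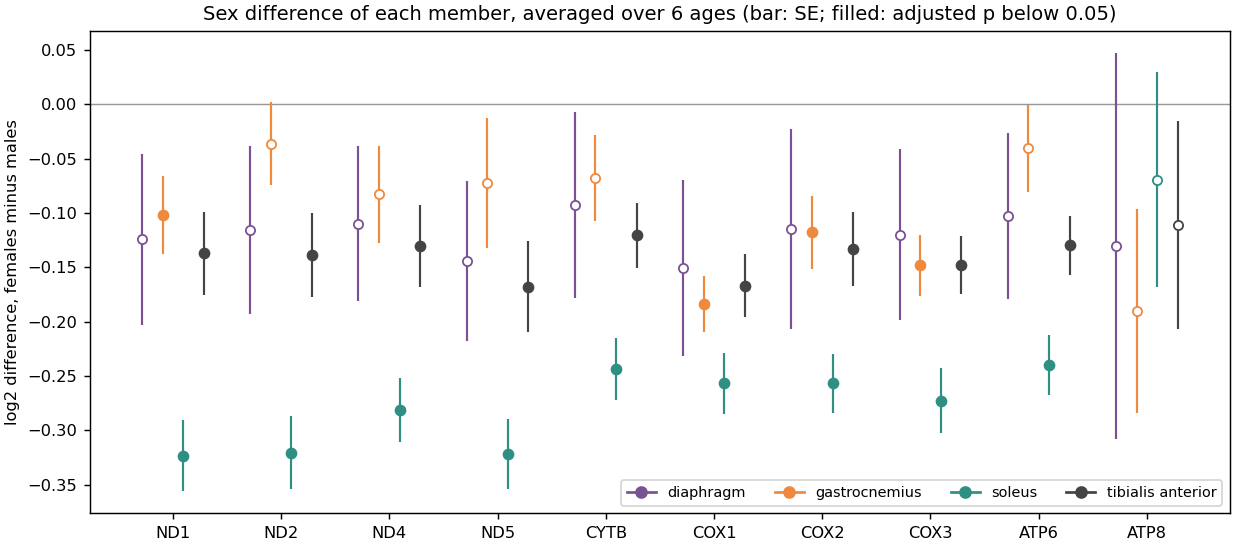
Log2 difference between females and males (females minus males, TMM scaling, averaged over ages) with its standard error for each of the 10 members in the 4 muscles. Filled points passed the adjusted p threshold; the soleus values of the 9 members other than ATP8 lie between -0.32 and -0.24, below those of tibialis anterior and gastrocnemius.

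Fibre type markers differed between the sexes as well. All 6 slow fibre markers were higher in females in soleus (median log2 difference 0.65), gastrocnemius (1.34) and tibialis anterior (1.52), and 6 of 7 fast fibre markers were lower in soleus (median -0.53). In diaphragm the summed slow fibre markers had medians of 796, 1033, 1337, 1377, 1405 and 1242 CPM in females from 6 to 27 months. In males these were 909, 963, 1088, 907, 1202 and 913. All 4 endothelial markers were lower in females in soleus and in gastrocnemius. Of all genes tested, 2590 of 15903 were higher in female soleus, 5014 of 15732 in gastrocnemius and 3529 of 14943 in tibialis anterior. Lower were 14.6, 26.4 and 24.2% in the same order, and 8.55% in diaphragm. Of the 81 nuclear subunit genes, 43 were lower and 1 higher in female soleus, 44 lower and 3 higher in gastrocnemius, 17 lower and 7 higher in tibialis anterior and 24 lower in diaphragm. The 17 in tibialis anterior lay near the share of all genes that were lower there. The part of fibre type or cell type in the sex difference of the members was not tested.

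With age 9 of the members rose in female soleus. ND5 had 14886, 17298 and 20738 TMM-scaled CPM at 6 months and 21962, 23458 and 28686 at 21 months (8 libraries each). ND2 went from 10041, 12416 and 15199 to 16170, 17565 and 19446, and COX1 from 49306, 58169 and 72335 to 70444, 76730 and 82883. Every library at 21 months lay above all those at 6 months for ND1, ND2, ND4, ND5, CYTB and ATP6, and 7, 6 and 5 of 8 did so for COX1, COX2 and COX3, but ATP8 overlapped fully (178.9 to 828.8 and 244 to 457). The share of all genes that separated in this way is not given here, and the 9 members moved together, so they are not independent observations. At 21 months 9 of 10 members were higher than at 6 months (11.4% of all genes tested were), from ND2 at 0.46 ± 0.08 (1.37-fold, adjusted p = 3.2e-05, edgeR) and ND5 at 0.42 ± 0.07 (adjusted p = 1.3e-05) to COX2 at 0.31 ± 0.07. ATP8 was at -0.09 ± 0.26. With all libraries in the fit, no member called against 6 months passed a fold of 1.5 in any muscle.

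All members but ATP8 were called at 24 months too, at 0.25 to 0.36 (12.0% of all genes higher), and at 27 months, at 0.19 to 0.30 (10%), with ND2 at 0.30 ± 0.08 and ND4 at 0.27 ± 0.06 at the oldest age. The median levels of COX1 and ND2 at 27 months stood between those at 6 and 21 months, with COX1 at 60739, 69562 and 78505 (10 libraries, 2 of them above all those at 6 months), and ND2 at 12281, 16074 and 17840 (8 above). A straight line over age called 9 of 10 as well (14.5% of all genes). At 12 months none was called (0.215% of all genes higher), with 9 members at an unadjusted p below 0.05 and a median of 0.23. At 18 months 4 were called (ATP6, CYTB, ND4 and ND5, at 0.21 to 0.23, with 3.57% of all genes higher), but 0 without the library with liver RNA.

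The rise shrank when libraries were scaled to nuclear-encoded counts, which lowered all genes together. At 21 months 7 members were called as higher, with a median of 0.19, at 24 months 3, at 27 months 0 with ATP8 lower, and the straight line over age called none. Relative to the median of all genes, the members' median was 0.39 at 21 months under either scaling. At 27 months it was 0.27 with TMM and 0.28 with nuclear-encoded scaling. Scaling moves all genes nearly alike, so this offset could hardly differ and is no check of the scaling. The share of all counts taken by the members, which amounts to scaling to total counts, had group medians of 21.2, 23.4, 23.3, 23.8, 22.8 and 22.1% from 6 to 27 months.

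Markers of other cells were measured in female soleus at the same ages. The fibroblast markers Pdgfra, Col1a1, Col1a2, Col3a1 and Dcn all fell, by a median of -1.11 at 21 months and -0.97 at 27 months, and their sum went from 1158, 1754 and 2089 CPM at 6 months to 601, 845 and 1256 at 27 months. The summed skeletal fibre genes Acta1, Ckm, Mb, Tnnc2 and Ttn went from 120942, 145825 and 164568 CPM at 6 months to 168283, 198524 and 221793 at 21 months, although only 1 of the 5 was called as higher. Of the 81 nuclear subunit genes 4 rose and 0 fell at 21 months, a smaller share than the 11.4% of all genes that rose, among them Cyc1 of complex III (0.26, adjusted p = 0.0015) and Ndufa10 of complex I (0.20). At 27 months none rose and 8 fell, where 8.74% of all genes were lower, among them Ndufa13 of complex I (-0.40), Atp5k of ATP synthase (-0.45) and Cox8b of complex IV (-0.33). The part of the changing mix of cells in the members' rise was not tested.

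**Figure D5:**
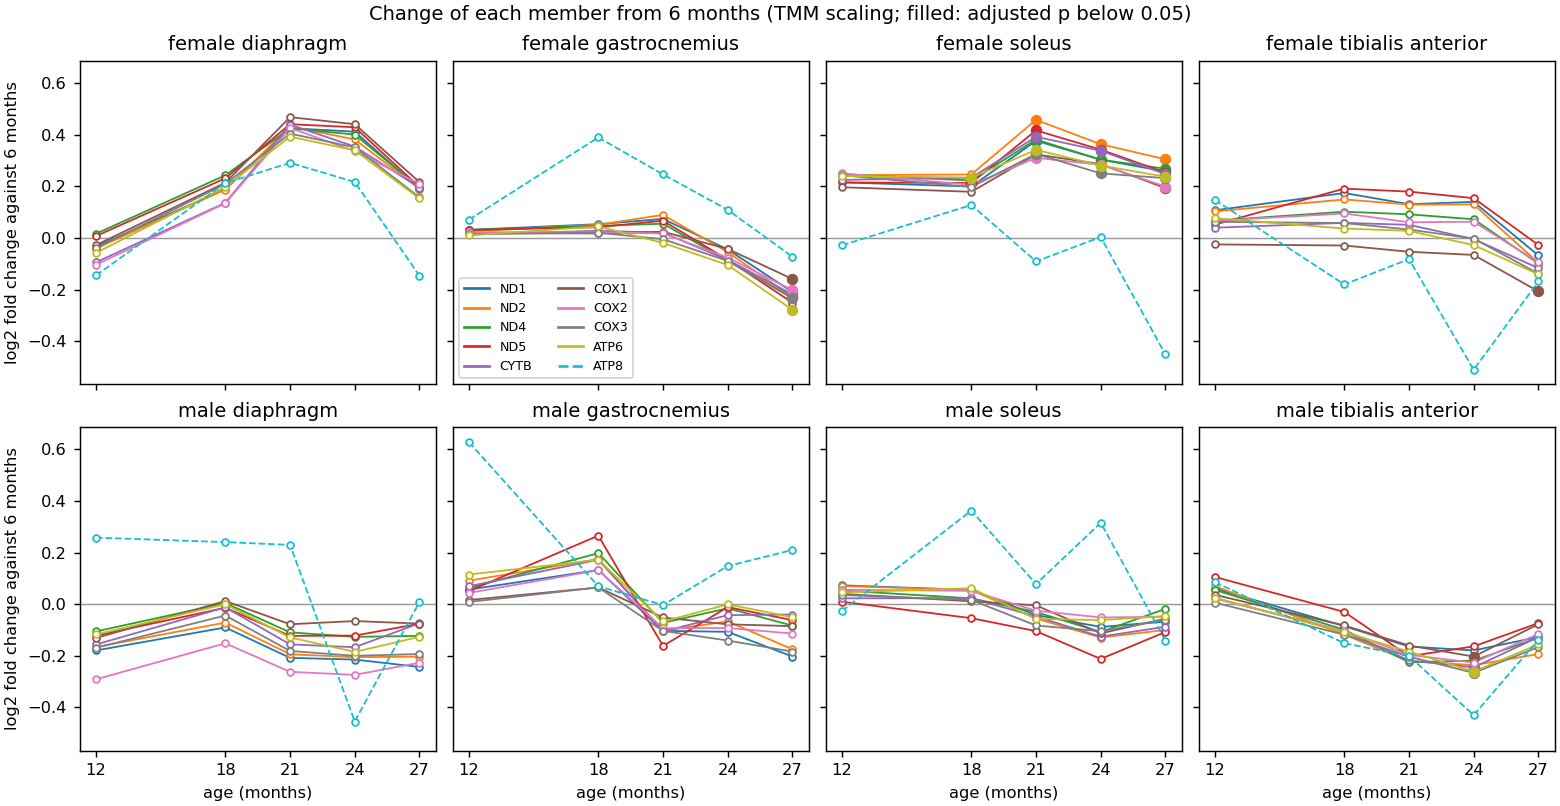
Log2 change of each member against 6 months (y axis, TMM scaling) at 12 to 27 months (x axis, months) in the 4 muscles of females and males. Filled points passed the adjusted p threshold and ATP8 is dashed; 9 members lie above 0 in female soleus, reaching 0.31 to 0.46 at 21 months, and lie below 0 in female gastrocnemius at 27 months and in male tibialis anterior at 24 months.

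In female gastrocnemius 8 members fell at 27 months. ATP6 had 12308, 12634 and 14220 TMM-scaled CPM at 6 months (8 libraries) and 8229, 10596 and 12474 at 27 months (10 libraries, 9 of them below all those at 6 months). COX3 had 15388, 15746 and 17811 and then 10580, 13293 and 15933, with 8 of 10 below. COX1 had 55988, 59235 and 67290 and then 41070, 53365 and 63254, with 6 of 10 below. The fall was called for 8 of 10 members (14.6% of all genes were lower), from -0.28 ± 0.06 for ATP6 (adjusted p = 0.00022, edgeR) and -0.23 ± 0.05 for COX3 (adjusted p = 0.00078) to -0.16 ± 0.06 for COX1 (adjusted p = 0.037). ND5 (-0.25 ± 0.11) and ATP8 (-0.07 ± 0.16) were not called. Leaving out each replicate number in turn gave 2 to 9 members called as lower, with the lowest count without replicate 5 and without replicate 7. No member was called at 12, 18, 21 or 24 months, with 0, 1, 0 and 0 members at an unadjusted p below 0.05 (edgeR; 0.579, 9.6, 15.8 and 19.2% of all genes called in either direction), and a straight line over age called 4 (17.8% of all genes lower): ATP6, COX3, CYTB and COX2. Scaled to nuclear-encoded counts 2 members were called at 27 months, and scaled to total counts also 2. The median of all genes with nuclear-encoded scaling was 0.12, and relative to it the members were at -0.25, against -0.24 with TMM. A change of scaling leaves such offsets nearly alike by construction.

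In the same comparison, where 14.6% of all genes were lower and 2249 of 15376 higher, 28 of the 81 nuclear subunit genes fell and 1 rose. Ndufb4 of complex I fell by 0.28 on the log2 scale, and Cox8a of complex IV rose by 0.39 ± 0.08. Of the fibre markers, 5 of 6 slow ones rose (median 0.65) and 5 of 7 fast ones fell (median -0.18), and 4 of 5 fibroblast markers fell; their part in the members' fall was not tested.

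In male tibialis anterior 4 members fell at 24 months. COX3 had 28773, 32480 and 34539 TMM-scaled CPM at 6 months (8 libraries) and 20439, 27122 and 30660 at 24 months (10 libraries), with 8 of 10 below all those at 6 months. ATP6 had 21508, 24546 and 26617 and then 15531, 21512 and 22966, with 5 of 10 below. At 24 months COX3 (-0.27 ± 0.07, adjusted p = 0.0047, edgeR), ATP6 (-0.26 ± 0.07, adjusted p = 0.0066), CYTB (-0.24 ± 0.08) and COX1 (-0.20 ± 0.07) were called, 4 of 10 against 6.3% of all genes lower. At 27 months none was called (7.81% of all genes lower), with 3 members at an unadjusted p below 0.05, and COX3 was at -0.17 ± 0.07. A straight line over age called 8 of 10 (9.79% of all genes), from ND2 at -0.29 ± 0.08 to COX1 at -0.17 ± 0.06, and left out ND5 and ATP8. Of the nuclear subunit genes 25 fell and 0 rose at 24 months. At that age 4 of 7 macrophage markers rose, where 1321 of all 14487 genes tested were higher. Their part in the members' fall was not tested.

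Fewer members were called in the other combinations. In female tibialis anterior COX1 alone was called as lower, by 0.21 on the log2 scale at 27 months (adjusted p = 0.021, edgeR, with 9.84% of all genes lower). The straight line over age also called COX1 alone (-0.16 ± 0.06, with 13.5% of all genes lower). At 27 months 0 members lay above 0, with a median of -0.11 and 3 members at an unadjusted p below 0.05, and the line gave 4 such members. Of the 81 nuclear subunit genes 36 fell and 1 rose at 27 months. In male gastrocnemius ND1 (-0.23 ± 0.09) and COX3 (-0.20 ± 0.07) fell in a straight line over age (16.2% of all genes lower) and none was called at 27 months (12.6%), with 2 at an unadjusted p below 0.05. In male soleus none was called at any age or over age, where the line gave 2 members at an unadjusted p below 0.05 and a median of -0.11 (5.78% of all genes called over age). In the diaphragm of either sex none was called at any age, where the spread between libraries was largest and a straight line over age called 5.86% of all genes in females and 8.92% in males. In male diaphragm 0 members had an unadjusted p below 0.05 at any age. In female diaphragm the median change at 21 months was 0.43, with 10 members above 0 and 5 at an unadjusted p below 0.05. Of 16193 genes 82 were higher and 165 lower. The straight line gave a median of 0.37 and 5 such members. Without the libraries low in histone RNA the members stood at 0.47 to 0.57 at 21 months, none called (lowest adjusted p 0.087, edgeR). At 24 months the median change in female diaphragm was 0.37 (4 members at an unadjusted p below 0.05, 3.33% of all genes called). Without the libraries low in histone RNA the median over the 10 members at 24 months was 0.54 and 4 were called: COX1 (0.61), ND5 (0.59), CYTB (0.56) and ND1 (0.54). In that fit 4.19% of all genes were higher.

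The log2 change from 6 to 27 months was compared between muscles by an interaction term, with gastrocnemius as the reference. In females the change in soleus exceeded that in gastrocnemius for ND2 (0.54 ± 0.18, adjusted p = 0.046, edgeR) and ATP6 (0.52 ± 0.16, adjusted p = 0.028), with 2.98% of all genes called in that direction. In all, 9 members had an unadjusted p below 0.05, and the median over members was 0.47. No member was called without the libraries numbered replicate 0, with the replicate number as a block, or with scaling to total or nuclear-encoded counts. RLE scaling called 4 members, upper quartile scaling and the fit without a filter called 1 each, and 7 were called without the libraries low in histone RNA (6.19% of all genes). For diaphragm against gastrocnemius in females none was called, although 9 members had an unadjusted p below 0.05 (median 0.42, lowest adjusted p 0.104, edgeR; 1.53% of all genes higher), and 9 were called without the libraries low in histone RNA (4.38% of all genes). None was called for tibialis anterior in females or for any muscle in males, with 0 members at an unadjusted p below 0.05 in each (0.57% of all genes called in either direction for female tibialis anterior, and 3.44, 0.594 and 0% for male diaphragm, soleus and tibialis anterior). Between the sexes the change at 27 months was not called as different for any member in any muscle, although in soleus 9 members had an unadjusted p below 0.05 (females minus males, median 0.27, lowest adjusted p 0.078). Of all genes 0.855% were called in soleus, 1.73% in tibialis anterior, 1.6% in gastrocnemius and 0% in diaphragm.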

How the data were processed

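RNA of whole muscles was measured, and labels gave the muscle, sex and age of each library. The authors deposited raw read counts per gene, made with ArrayStudio (version not given in the sources used here) on mm10 with their own RefSeq-based gene model, from strand-specific read pairs of 76 bases. Of 25091 rows, 633 repeated a symbol and were left out (0.0335% of counts; the row with the largest total was kept). No 2 libraries were identical.

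Genes passing filterByExpr were tested with the quasi-likelihood test of edgeR 4.0.16 (R 4.3.3) after TMM scaling, with Benjamini-Hochberg adjustment over all genes; adjusted p below 0.05 was a call. Ages were compared with 6 months within each muscle and sex; the straight line over age gives the change from 6 to 27 months. Sexes were compared within each muscle, and muscles and their interaction with age within each sex. Levels printed as CPM were scaled by TMM over all libraries. P-values measure the spread between libraries. Libraries of different muscles can come from the same mouse, but no label ties muscles to a mouse. Comparisons between muscles treated these libraries as independent.

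The members and gene lists were chosen with earlier results of these data known. All 10 members, the other mitochondrially encoded genes, the 5 genes most like the members by correlation and up to 3 genes per list with the smallest adjusted p were named. Gene positions and sequences are from the GRCm38.p6 reference. The test was tried on simulated counts. Alternatives were DESeq2 1.42.0, limma-voom (limma 3.58.1), RLE, upper quartile, total count and nuclear-encoded scaling, no filter, Bonferroni adjustment, a fold of 1.5, a replicate block, runs of sample numbers, both sexes in 1 fit, and leaving out each replicate number or the libraries that stood apart; the low histone and replicate 0 choices for sex and muscle were added after seeing the data.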

Additional observations from a re-analysis of the deposited data

Results flagged for a closer look

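Single libraries stood far from the rest of their group in the share of counts taken by the 10 members in 15 of 48 groups by Dixon's test, where chance gives about 1 in 20. In diaphragm the high libraries were female replicate 0 at 21 months (40.2%, the others 25.6 to 32.3%), female replicate 0 at 27 months (39.6%, the others 24.2 to 30.8%) and male replicate 2 at 6 months (44.7%, the others 27.6 to 33.8%). All 3 are among the 7 libraries low in histone RNA.

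In gastrocnemius the low libraries were female replicate 0 at 18 months (17.9%, the others 19.5 to 20.4%) and at 21 months (15.7%, the others 19.6 to 22.6%), male replicate 7 at 12 months (14.8%, the others 19.7 to 22.9%) and male replicate 0 at 24 months (16.8%, the others 19.03 to 21.4%). In tibialis anterior they were female replicate 0 at 6 months (24.5%, the others 27.7 to 30.4%), 12 months (26.04%, the others 28.4 to 30.5%), 18 months (24.3%, the others 29.3 to 32.0%) and 21 months (23.3%, the others 28.5 to 31.9%) and male replicate 0 at 12 months (27.4%, the others 32.0 to 35.3%). Male replicate 8 of tibialis anterior at 27 months was high (37.1%, the others 27.9 to 30.7%). In soleus female replicate 6 at 12 months was high (26.1%, the others 22.0 to 24.0%) and male replicate 8 at 24 months low (20.3%, the others 24.6 to 27.5%).

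The change from 6 to 27 months differed between soleus and gastrocnemius in females for ND2, by 0.54 on the log2 scale (adjusted p = 0.046, edgeR), and for ATP6, by 0.52 (adjusted p = 0.028). Neither was called without the libraries numbered replicate 0, with the replicate number as a block, or with scaling to total or nuclear-encoded counts. The sum of replication-dependent histone genes was higher in the replicate 0 library than in the median of its group in 12 of 12 groups of gastrocnemius and of tibialis anterior, by 1.14 and 1.15 times (median over groups), and its part in the low share of the members was not tested.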

How the results depend on the processing

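Of the counts of calls, median differences and percentages of counts compared under the alternatives, 1172 stayed the same, 131 moved and 16 changed direction. Of the 40 shares of single members among the members' counts, 38 moved and 2 stayed the same with counts divided by length. The age calls were small changes: requiring a fold above 1.5 left 0 of the calls against 6 months, and Bonferroni adjustment left 4 members in female soleus at 21 months, 1 at 24 months and 0 elsewhere. Nuclear-encoded scaling gave 3 members at 21 and 2 at 27 months and 0 over age in female gastrocnemius; 0 at 18, 3 at 24, 1 at 27 months (ATP8, lower) and 0 over age in female soleus; 0 at 27 months and over age in female tibialis anterior; 0 over age in male gastrocnemius; 2 at 21 months in male tibialis anterior; and 0 for soleus against gastrocnemius in the interaction. Total count scaling gave 2 and 1 in female gastrocnemius at 27 months and over age, 0, 3, 1 (ATP8, lower) and 2 in female soleus at 18, 24 and 27 months and over age, 0 over age in male gastrocnemius, 2 and 1 in male tibialis anterior at 21 and 27 months, and 3 and 0 in the female interactions of diaphragm and soleus with gastrocnemius. Median differences between muscles under nuclear-encoded and total count scaling were, in females, 0.70 and 0.49 for diaphragm minus gastrocnemius (reversed), 0.53 and 0.39 for diaphragm minus soleus, -0.0664 and -0.0886 for diaphragm minus tibialis anterior, -0.13 and -0.0673 for gastrocnemius minus soleus (reversed) and -0.63 and -0.50 for soleus minus tibialis anterior. In males they were 0.75 and 0.54, 0.34 and 0.25 (both pairs reversed), -0.11 and -0.11 and, for soleus minus tibialis anterior, -0.46 and -0.37; gastrocnemius minus soleus was -0.40 under nuclear-encoded scaling and gastrocnemius minus tibialis anterior -0.61 under total count scaling. RLE and upper quartile scaling gave 0.00535 and 0.0259 for male diaphragm minus gastrocnemius (reversed), 4 and 1 for the female soleus interaction and, with RLE, 1 over age in male gastrocnemius. Expressed per 100 other counts, the members' medians were 42.6 in diaphragm and in tibialis anterior, 32.5 in soleus and 24.5 in gastrocnemius.

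DESeq2 gave 1 member in female soleus at 12 months, 2 over age in female tibialis anterior and 1 over age in male gastrocnemius. Limma-voom gave 2 over age in female tibialis anterior, 3 for the female diaphragm interaction and -0.0400 for female diaphragm minus soleus (reversed). Without a filter, 5 and 2 were called in female gastrocnemius at 27 months and over age, 2 in female soleus at 18 months, 0 over age in male gastrocnemius and 1 in the female soleus interaction. With both sexes in 1 fit, 5 members were called at 27 months in gastrocnemius, 3 in tibialis anterior and 0 in soleus. Not every pair of same-numbered libraries of different muscles correlated above 0.1 in deviations from the group means, so the numbers were not used to pair. In the limb muscles the same-number medians were 0.26 for gastrocnemius and tibialis anterior (84 of 102 pairs above 0.1), 0.18 for gastrocnemius and soleus (65 of 103) and 0.17 for soleus and tibialis anterior (72 of 101), against -0.0393 to -0.0278 for other numbers. This is a hint from the data that equal numbers may mark the same mouse, which no label states. Pairs with diaphragm had medians of -0.000421 to 0.0225. The replicate block gave 9 over age in female gastrocnemius, 1 and 3 in female tibialis anterior at 21 and 27 months, 0 over age in male gastrocnemius, 7 and 1 in male tibialis anterior at 24 and 27 months, 1 for the sex interaction in soleus, 0 for the female soleus interaction and -0.00665 for female diaphragm minus soleus (reversed). Runs of sample numbers in the model gave 1 over age in male gastrocnemius and 7 in male tibialis anterior at 24 months.

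Leaving out the libraries low in histone RNA gave 4 in female diaphragm at 24 months, 2 for sex in diaphragm, 9 and 7 for the female diaphragm and soleus interactions and -0.0686 for female diaphragm minus soleus (reversed). Leaving out the library highest in liver markers gave 0 in female soleus at 18 months. Leaving out each replicate number in turn gave 0 to 4 members over age in female diaphragm, 2 to 9 at 27 months and 2 to 7 over age in female gastrocnemius, 0 to 1 at 12 and 0 to 9 at 18 months in female soleus, 0 to 2 at 27 months and 0 to 3 over age in female tibialis anterior, 0 to 1 at 27 months and 0 to 3 over age in male gastrocnemius, and 0 to 2, 2 to 7 and 0 to 4 at 21, 24 and 27 months and 4 to 9 over age in male tibialis anterior. Without replicate 0 the female diaphragm minus soleus median was -0.0599 (reversed) and the female soleus interaction called 0. The cause of these moves was not tested, and depth limited none of these values, since each member had at least 161 CPM.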

Other observations

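The other mitochondrially encoded genes did not all move with the members. Over the 48 group means of log2 levels, the summed members correlated with ND3 at 0.85 and with ND4L at 0.76 (Pearson's r), both complex I subunits of the same strand, and with ND6, the complex I subunit of the opposite strand, at -0.17; the groups share muscle and scaling. For deviations from the group means over all libraries the values were 0.67, 0.49 and 0.39. ND6 was higher in females in gastrocnemius (0.51 ± 0.05 on the log2 scale, adjusted p = 3.0e-18, edgeR), tibialis anterior (0.28) and soleus (0.16), the muscles in which members were lower in females. ND3 fell with age by the straight line in female gastrocnemius (-0.32 ± 0.08), male gastrocnemius (-0.33 ± 0.10), male tibialis anterior (-0.36 ± 0.06) and male diaphragm (-0.50 ± 0.14). The rRNA genes Rnr1 and Rnr2, which the ribosomal RNA removal depletes, were both called as lower with age in male tibialis anterior (-1.97 ± 0.38 for Rnr2 by the straight line), and had median levels of 4.7 to 17 CPM per kilobase in the 4 muscles.

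In female gastrocnemius at 27 months, where 14.6% of all genes were lower, 4 of the 15 genes of mitochondrial DNA transcription and replication fell and 0 rose, 4 of the 19 of mitochondrial RNA processing fell and 1 rose, and 1 of the 11 regulators of biogenesis fell and 2 rose. In female soleus at 27 months, where 10% of all genes were higher and 8.74% lower, 1 rose and 0 fell, 0 rose and 0 fell, and 1 rose and 1 fell. The genes named next were among the 3 of their list with the smallest adjusted p in the muscles given. Tfam, which packages mitochondrial DNA and starts its transcription, fell at 27 months in female gastrocnemius (-0.25 ± 0.04, adjusted p = 7.5e-07, edgeR), male gastrocnemius (-0.23 ± 0.05) and male tibialis anterior (-0.12 ± 0.04) and rose in female soleus (0.21 ± 0.06, adjusted p = 0.017). Mgme1, an exonuclease of mitochondrial DNA, fell in gastrocnemius in females (-0.27 ± 0.06) and males (-0.37 ± 0.06). Elac2, which cuts tRNAs out of the precursor RNA, rose at 27 months in female gastrocnemius (0.17 ± 0.04), female tibialis anterior (0.18 ± 0.04) and male tibialis anterior (0.18 ± 0.06). Ppargc1a, a coactivator of mitochondrial biogenesis, rose at 27 months in male gastrocnemius (0.91 ± 0.29) and male tibialis anterior (0.81 ± 0.28).

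Among 14167 genes, those whose log2 levels over the 48 group means were most like the summed members were Sucla2 (Pearson's r 0.96), Immt (0.96), Nkiras1 (0.96), Ndufv2 (0.95) and Fh1 (0.95). Sucla2 and Fh1 are citric acid cycle enzymes, Immt shapes the inner mitochondrial membrane and Ndufv2 is a nuclear-encoded complex I subunit. For deviations from the group means over all libraries they were Sh3glb1 (0.87), Btbd1 (0.86), Fundc2 (0.85), Sucla2 (0.84) and Ppp1cb (0.84). The libraries share depth and RNA quality, and the values are descriptions.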
